A study of Homo sapiens with 19 samples.

Results

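The genes described here are 36 genes of the ATF4 stress response and of amino acid supply: ATF4 itself, other stress transcription factors, feedback and stress effectors, endoplasmic reticulum genes, enzymes of amino acid synthesis and mitochondrial folate metabolism, amino acid transporters, and genes of tRNA export and charging. They were listed by symbol from what is known of the pathway, not by a measured value, although earlier results of these data were known when the list was made, and each symbol matched 1 of the 44717 gene identifiers listed for any sample. They were measured by RNA-seq in 19 libraries of 7 groups. 501Mel, a human melanoma cell line, carried a lentiviral short hairpin RNA (shRNA) against BRG1 (shBRG1, n = 3) or its scramble control (shSCR1, n = 3), or an shRNA against MITF (shMITF, n = 2) or a second scramble control (shSCR2, n = 2). Hermes 3A, an immortalised human melanocyte line, carried shBRG1, shMITF or shSCR (n = 3 each). Every group, controls included, had been infected with an shRNA lentivirus, each knockdown rests on 1 shRNA construct, and Hermes 3A cells were grown with TPA, cholera toxin, stem cell factor and endothelin-1. How the shSCR1 and shSCR2 vectors differ is not stated. The study's methods say that infections were repeated but do not tie the sequenced replicates to separate infections or cultures, so the p-values measure the spread between these samples, which may be technical.

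ATF4 is a bZIP transcription factor that cells make mainly by translational control. Starvation for amino acids, misfolded protein in the endoplasmic reticulum and other stresses activate kinases that phosphorylate the translation initiation factor eIF2, which lowers protein synthesis in general and raises translation of the ATF4 message. ATF4 pairs with C/EBP proteins at C/EBP-ATF response elements of genes for amino acid synthesis, uptake and tRNA charging, while DDIT3, TRIB3 and PPP1R15A restrain or redirect the response. MITF is the master transcription factor of the melanocyte lineage and BRG1, encoded by SMARCA4, is the ATPase of SWI/SNF chromatin remodelling complexes. Messenger RNA levels do not measure ATF4 protein.

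Start windows, from 250 bases before to 50 after a transcription start (RefSeq, GRCh38.p14), were at hand for 30 of the 36 genes. The windows numbered 47, so that some genes had windows of several starts, and a match may lie at any of these. They are shown because the C/EBP-ATF core, searched on both strands as TGATGNAA, marks the kind of element through which ATF4 acts. It occurred in the windows of 9 of the 30 genes (AARS, ASNS, CHAC1, GARS, HERPUD1, SLC1A4, SLC1A5, SLC3A2 and SLC7A1) and of 4.46% of 27305 genes with such windows. The E-box CACGTG, the motif of MITF and other bHLH factors, occurred in 5 of the 30 (ALDH18A1, ATF4, HERPUD1, SLC1A5 and SLC7A5) and in 8.77% of all genes. Capitals mark the match, and each sequence is written along the gene's own strand, so that a core on the opposite strand reads as its reverse complement. The ASNS match, whose first base lies 68 bases before the start, is at chr7:97872458-97872487 on the minus strand. The CHAC1 match is at chr15:40953251-40953280 and that of SLC1A4 at chr2:64989381-64989410, both on the plus strand. The SLC1A5 match is at chr19:46784893-46784922 and that of AARS at chr16:70289675-70289704, both on the minus strand. The SLC1A5 core lies inside the gene (chr19:46774883-46788594), in a window of another start than its E-box at chr19:46787327-46787354. The SLC1A4 match also lies inside its gene, which begins at chr2:64988477. The ATF4 E-box is at chr22:39520466-39520493 on the plus strand.
ASNS: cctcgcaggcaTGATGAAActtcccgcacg
CHAC1: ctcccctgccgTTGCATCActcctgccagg
SLC1A4: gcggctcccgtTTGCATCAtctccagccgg
SLC1A5: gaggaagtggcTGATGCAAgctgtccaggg
AARS: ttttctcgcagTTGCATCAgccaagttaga
ATF4: gaggagacggtCACGTGgtcgcggcgga
A match is a run of letters and was not measured as a bound site. The 9 genes that carry the core did not move together, as the values of ASNS, CHAC1, SLC1A4 and SLC1A5 below show.

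Levels are given as CPM, a gene's counts scaled to one library size, on a scale common to all 19 libraries, whose totals ran from 29158502 to 78857900 counts. Fold changes come from each comparison's own fit, and a gene is called at an adjusted p under 0.05 (edgeR's quasi-likelihood test, Benjamini-Hochberg adjustment over all genes tested) with an absolute log2 fold change over 1. BRG1 mRNA fell by 2.36 on the log2 scale in 501Mel cells and by 2.38 in Hermes 3A cells, and MITF mRNA in the shMITF groups fell by 1.06 and 0.85. MITF mRNA also fell with shBRG1, by 1.55 in 501Mel and 0.43 in Hermes 3A cells. The 8 melanocyte lineage markers were expressed in every group, their summed level being lowest in 501Mel shBRG1 (3167 to 3464 CPM, against 29433 to 31637 CPM in shSCR1). The one leukocyte marker that could be summed stayed at or below 0.844 CPM. The 5 fibroblast markers moved with the groups: in 501Mel they summed to 3.72 to 5.14 CPM in shSCR1, 15.9 to 19.6 in shBRG1, 7.43 to 8.50 in shSCR2 and 7.22 to 13.2 in shMITF, and in Hermes 3A to 71.5 to 80.1 CPM in shSCR, 138 to 147 in shBRG1 and 112 to 219 in shMITF. Of 4 keratinocyte markers only KRT10 is on the common scale, which leaves out genes that fail the filter on low counts or are missing from a file. KRT10 was at 27.1 to 37.4 CPM over the 501Mel groups. In Hermes 3A it was at 32.0 to 34.5 CPM in shSCR, 27.3 to 29.5 in shBRG1 and 43.3 to 64.6 in shMITF. The part of these markers in the results was not tested, and in bulk RNA fewer cells of a type and less RNA per cell cannot be told apart.

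3 facts about the libraries bear on these genes in particular. Replicate 1 of 501Mel shSCR1 was the lowest of its group for 29 of the 34 genes at 1 CPM or more, where it was the lowest for 43.9% of all genes, and replicate 1 of Hermes 3A shMITF was the highest of its group for 25 of 36 genes, where it was so for 39.4% of all genes. The libraries of 501Mel shBRG1, 501Mel shSCR1, Hermes 3A shSCR and Hermes 3A shBRG1 varied little within a group (biological coefficient of variation 4.60% to 5.88%), those of 501Mel shSCR2 and shMITF more (16.7% and 17.4%) and those of Hermes 3A shMITF most (28.8%). The scramble groups of 501Mel also differed from each other: 11 of 35 genes were called between them, 6 higher and 5 lower in shSCR2, where 31.5% of all genes were called. SLC7A1 (1.58), MTHFD2 (1.46), PSAT1 (1.42), PSPH (1.30), SLC7A5 (1.22) and ALDH18A1 (1.07) were higher in shSCR2 by these log2 differences, and CHAC1 (-2.21), DDIT4 (-1.93), CEBPB (-1.53), CBS (-1.21) and ALDH1L2 (-1.09) were lower. What set the scramble groups apart is not stated, so for the 36 genes both 501Mel knockdowns are also given below against the other scramble group.

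Per kilobase of exon, HSPA5, the chief chaperone of the endoplasmic reticulum, was the highest of the 36 genes under scramble shRNA in Hermes 3A cells (424 ± 10.4 CPM per kilobase, SD, n = 3), followed by SLC7A5 at 296 ± 14.7, the light chain of a transporter of large neutral amino acids. In 501Mel shSCR1 the highest was SLC1A4 at 198 ± 4.26, a carrier of alanine, serine and cysteine, then HSPA5 at 188 ± 18.2 and SLC7A5 at 139.8 ± 19.2. The order was another in 501Mel shSCR2 (n = 2), with SLC7A5 the highest at 322 ± 104, then HSPA5 at 164 ± 12.9 and SLC1A4 at 114 ± 10.1. ATF4 ranked the fourth in both 501Mel scramble groups (139 ± 9.47, n = 3, and 114 ± 18.7, n = 2) and the seventh in Hermes 3A cells (65.9 ± 0.576, n = 3). STC2, which encodes a secreted glycoprotein, was the lowest in all 3 scramble groups.

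**Figure D1:**
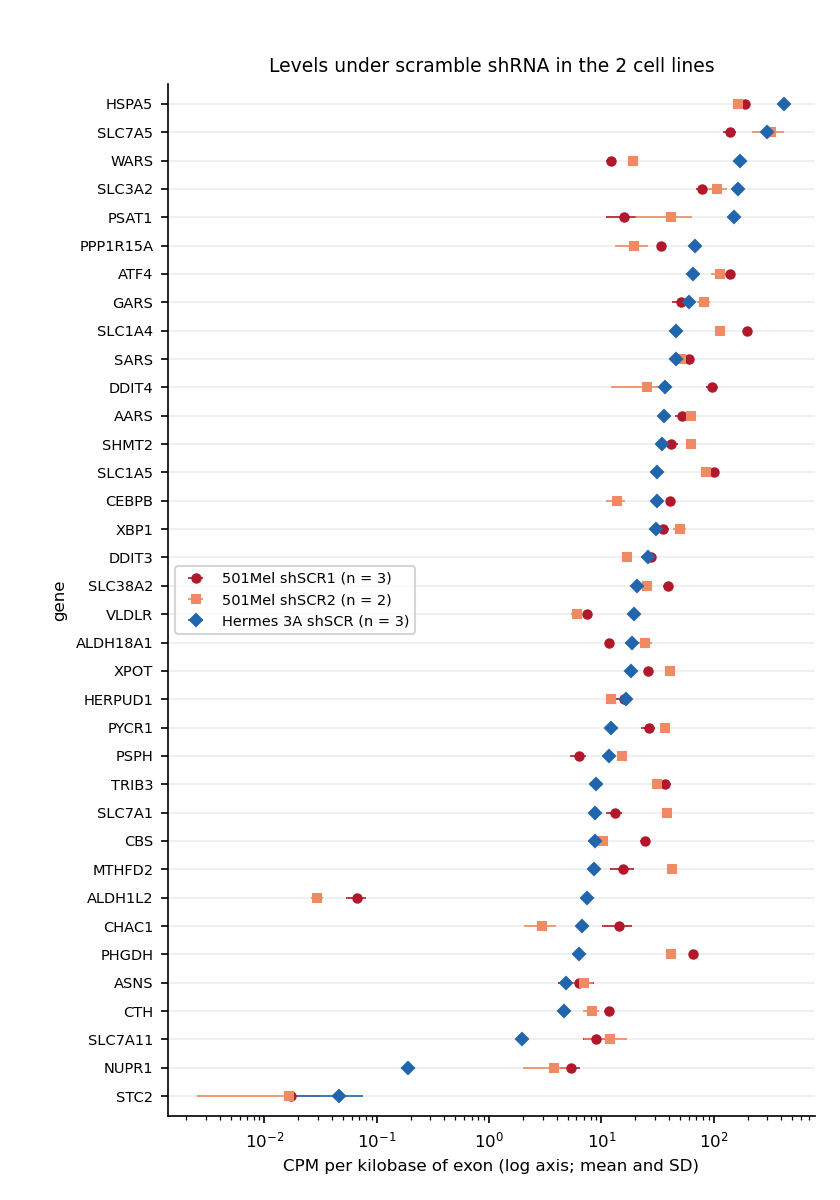
Levels of the 36 genes under scramble shRNA, in CPM per kilobase of exon on a log axis, as the mean and SD of 501Mel shSCR1 (n = 3), 501Mel shSCR2 (n = 2) and Hermes 3A shSCR (n = 3), ordered by the Hermes 3A level. ALDH1L2, WARS and PSAT1 lie higher in Hermes 3A cells, and NUPR1, PHGDH and SLC7A11 lie higher in both 501Mel groups.

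Of 35 genes tested between the lines, 10 were called higher in 501Mel and 6 lower (38.1% of all genes were called), with a median log2 difference of 0.44 where that of all genes was 0.08. PHGDH, which opens the serine pathway, measured 549, 647 and 617 CPM in shSCR1 and 368 and 396 CPM in shSCR2, against 59.0, 58.3 and 56.6 CPM in Hermes 3A shSCR, a log2 difference of 3.05 (SE 0.07). PSAT1, the next enzyme of that pathway, went the other way: 22.7 to 41.9 CPM in shSCR1, 57.6 and 125 CPM in shSCR2 and 317 to 346 CPM in Hermes 3A (-2.57, SE 0.32). The groups did not overlap for either enzyme. PSPH, which ends the pathway, was at 32.3 ± 1.65 CPM (SD, n = 3) in Hermes 3A shSCR, between 17.4 ± 2.78 in shSCR1 (n = 3) and 42.5 ± 3.71 in shSCR2 (n = 2). The lines differed most in ALDH1L2, a mitochondrial folate dehydrogenase, with at most 0.644 CPM in the 501Mel scramble libraries and at least 62.3 CPM in those of Hermes 3A (-7.38, SE 0.11). WARS, the tryptophanyl-tRNA synthetase, was lower in 501Mel by 3.51 on the log2 scale, with 68.5 to 124 CPM against 1083 to 1106 CPM, while the other genes of tRNA export and charging differed by at most 0.83. The stress regulator NUPR1 was higher in 501Mel by 4.58 (SE 0.35), as were SLC7A11 (2.40), the cystine transporter, TRIB3 (1.94), SLC1A4 (1.69), MTHFD2 (1.57), SLC1A5 (1.55), PYCR1 (1.36), SLC7A1 (1.35) and CTH (1.08). VLDLR (-1.56), PPP1R15A (-1.42) and HSPA5 (-1.28) were lower there. ATF4 itself was higher in 501Mel by 0.93 (SE 0.07), past the test but not the fold threshold. These differences are from the mean of both 501Mel scramble groups, and 13 of the 16 calls were also made against Hermes 3A with each scramble group alone. MTHFD2 (0.84 with shSCR1, 2.30 with shSCR2) and SLC7A1 (0.56 and 2.14) were called with shSCR2 only, their levels being 76.4 ± 18.3 and 101 ± 16.4 CPM in shSCR1 (n = 3), 207 ± 14.8 and 298 ± 0.978 CPM in shSCR2 (n = 2) and 42.2 ± 1.25 and 67.8 ± 0.962 CPM in Hermes 3A shSCR (n = 3). CTH was called with shSCR1 only (1.32 and 0.84). CHAC1 was called higher in 501Mel with shSCR1 (1.08) and lower with shSCR2 (-1.13). ATF4 (1.07 with shSCR1 and 0.80 with shSCR2), CBS (1.46 and 0.25) and DDIT4 (1.39 and -0.54) were called higher with shSCR1 only. SLC7A5 (-1.10 and 0.12) and SLC3A2 (-1.06 and -0.61) were called lower with shSCR1 only. With shSCR2 only, XPOT was called higher (0.48 and 1.17) and CEBPB lower (0.38 and -1.16). Cell line, donor and culture medium cannot be told apart in these differences.

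With shBRG1 in 501Mel cells ATF4, DDIT3, PPP1R15A and ALDH18A1 were among the genes that rose and SLC1A4, CBS and PHGDH among those that fell, with no single direction for the 36 genes. DDIT3, the pro-apoptotic factor CHOP, rose 4.81-fold, ALDH18A1, the first enzyme of proline synthesis, 4.36-fold, and PPP1R15A, the phosphatase subunit that returns eIF2 to its active form, 2.53-fold. SLC1A4 fell 14.5-fold, CBS 3.40-fold and PHGDH 2.74-fold. Of the 36 genes 5 were called higher and 5 lower, against 21.7% and 17.4% of all genes called in each direction. At an adjusted p under 0.05 alone 15 rose, 12 fell and 9 did not pass, where 41.2% of all genes rose and 39.1% fell. The median log2 fold change was 0.15 over the 36 genes and 0.05 over all genes, so the genes as a list stood near the background of a comparison in which most genes moved.

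Among the transcription factors, ATF4 was at 324, 371 and 356 CPM in shSCR1 and at 523, 558 and 493 CPM in shBRG1. All shBRG1 libraries lay above all controls, and ATF4 rose by 0.52 (SE 0.06, adjusted p = 9.3e-09). DDIT3 went from 33.7, 38.8 and 35.1 CPM to 179.9, 192 and 170.4 CPM, a log2 fold change of 2.27 (SE 0.06, adjusted p = 2.6e-20). DDIT3 is the gene of this group with the largest rise, and its exons share 27.2% of their bases with MARS on the opposite strand. MARS did not pass the test (-0.07, SE 0.05), and the strand setting of the authors' counting is not given in the sources used here. CEBPB, a C/EBP partner of ATF4, fell from 79.9, 81.8 and 76.5 CPM to 44.6, 48.1 and 44.8 CPM (-0.86, SE 0.05). XBP1, the effector of the IRE1 arm of the unfolded protein response, rose by 0.41 (SE 0.08), and NUPR1 fell by 0.45 (SE 0.13).

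The feedback and stress effectors split evenly, 3 up and 3 down. PPP1R15A rose from 113, 104 and 97.9 CPM to 276, 300.1 and 255 CPM (1.34, SE 0.06, adjusted p = 5.2e-16), and TRIB3, a pseudokinase that restrains ATF4, by 0.42 (SE 0.07). STC2 was called higher (1.58, SE 0.39) at levels of 0.0951 to 0.117 CPM in the controls and 0.305 to 0.356 CPM with shBRG1. CHAC1, a glutathione-degrading enzyme and one of the more specific ATF4 targets, went from 19.4, 35.9 and 33.3 CPM to 9.57, 10.1 and 8.99 CPM (-1.69, SE 0.28, adjusted p = 0.0042). All shBRG1 libraries lay below all shSCR1 libraries for this gene. DDIT4, an inhibitor of mTORC1, fell by 0.71 (SE 0.08) and VLDLR, a lipoprotein receptor, by 1.04 (SE 0.06), a call that was lost without replicate 2 of shBRG1 (-0.98). Of the endoplasmic reticulum genes, HSPA5 fell from 655, 792 and 756 CPM to 526, 546 and 513 CPM (-0.54, SE 0.06) and HERPUD1, which serves the degradation of misfolded proteins, rose by 0.85 (SE 0.08).

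Of the 8 enzymes of amino acid synthesis 3 rose, 2 fell and 3 did not pass. Both proline enzymes rose: ALDH18A1 from 40.2, 46.6 and 45.3 CPM to 205, 198 and 200.3 CPM (2.12, SE 0.05, adjusted p = 2.5e-20) and PYCR1 by 0.70 (SE 0.09). In the serine pathway PHGDH fell from 549, 647 and 617 CPM to 231, 243 and 219 CPM (-1.46, SE 0.06, adjusted p = 8.3e-17). PSAT1 did not pass (-0.59, SE 0.27, adjusted p = 0.11) and PSPH rose by 0.87 (SE 0.08). CBS, which makes cystathionine from homocysteine and serine, fell from 146, 177 and 169 CPM to 52.6, 48.9 and 49.9 CPM (-1.77, SE 0.06), while CTH, the next enzyme, did not pass (0.14, SE 0.07). ASNS, asparagine synthetase and the standard ATF4 reporter gene, was at 17.0, 32.8 and 34.9 CPM in shSCR1 and at 39.2, 37.4 and 34.8 CPM in shBRG1. Its groups overlapped and the change did not pass (0.34, SE 0.30, adjusted p = 0.35). Of the mitochondrial folate enzymes SHMT2, which takes a carbon from serine, fell by 0.95 (SE 0.10), ALDH1L2 rose by 0.60 (SE 0.23) at under 1 CPM, and MTHFD2 did not pass (0.51, SE 0.20, adjusted p = 0.074).

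The transporters held the largest change of the 36 genes. SLC1A4 fell from 1389, 1394 and 1341 CPM to 99.8, 103 and 95.0 CPM (-3.86, SE 0.05, adjusted p = 1.3e-24), from the highest rank per kilobase in shSCR1 to rank 24 of 36. SLC1A5, its paralogue and the main glutamine carrier, rose from 321, 345 and 335 CPM to 732, 838 and 832 CPM (1.20, SE 0.05), to the highest rank. These 2 relatives moved in opposite directions with no overlap of groups in either. SLC7A11 went from 62.9, 93.8 and 103 CPM to 45.4, 43.6 and 48.3 CPM (-0.98, SE 0.21, adjusted p = 0.011), SLC7A1, the cationic amino acid carrier, rose by 0.73 (SE 0.10) and SLC38A2, a neutral amino acid carrier induced by starvation, by 0.19 (SE 0.05). SLC7A5 (-0.03, SE 0.08) and its heavy chain SLC3A2 (0.07, SE 0.07) did not pass. Among the genes of tRNA export and charging AARS rose by 0.51 (SE 0.06) and SARS fell by 0.88 (SE 0.06), while XPOT (0.01), GARS (0.16) and WARS (0.04) did not pass.

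**Figure D2:**
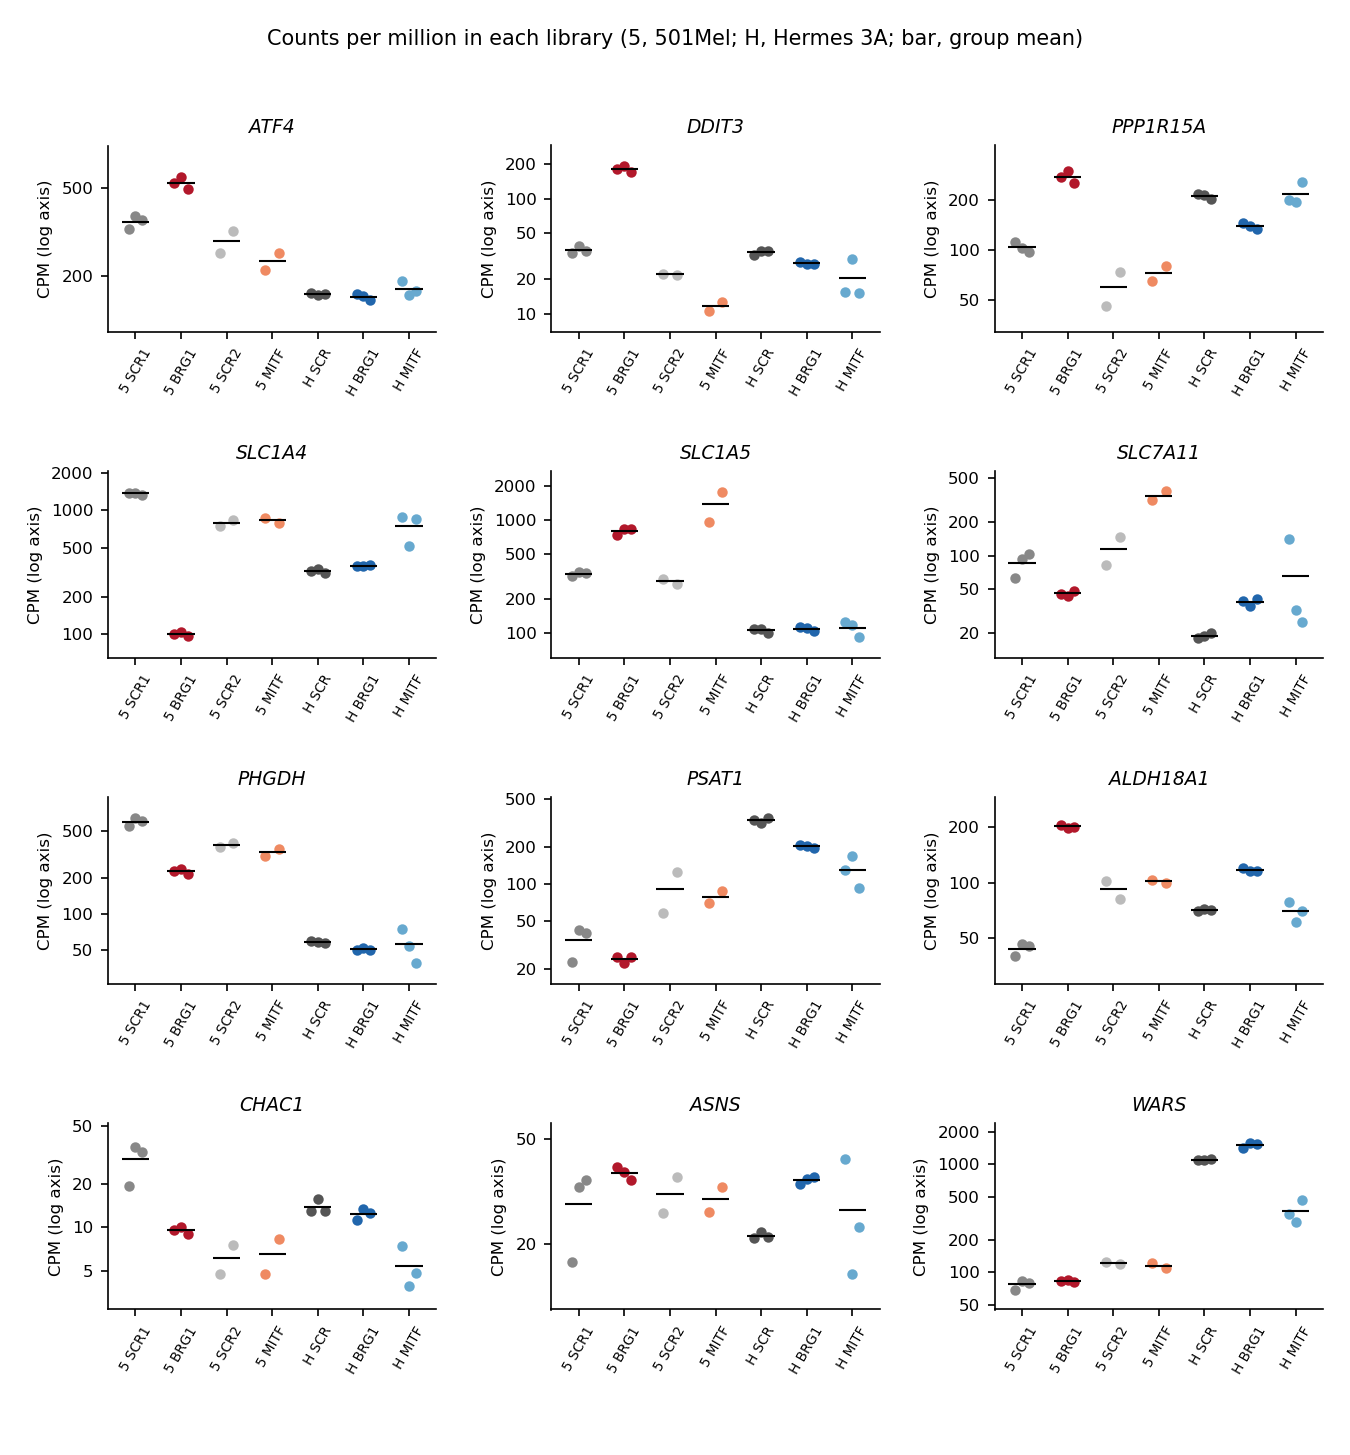
CPM of 12 of the genes in each of the 19 libraries on log axes, with a bar for the mean of each group (501Mel shSCR1, shBRG1, shSCR2 and shMITF, then Hermes 3A shSCR, shBRG1 and shMITF). SLC1A4 lies near 100 CPM only in the 3 libraries of 501Mel shBRG1, and DDIT3 lies above 170 CPM only there.

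The choice of scramble group decided part of this picture. Against shSCR2, where 32.0% of all genes were called higher and 20.1% lower, 6 of the 10 calls were made again in the same direction: DDIT3 (2.96, SE 0.09), PPP1R15A (2.11, SE 0.20), ALDH18A1 (1.06, SE 0.09), SLC1A5 (1.41, SE 0.09), STC2 (1.95, SE 0.52) and SLC1A4 (-3.08, SE 0.08). PHGDH (-0.81), VLDLR (-0.77) and CBS (-0.56) stayed past the test below the fold threshold, and ATF4 (0.79, SE 0.11) and TRIB3 (0.63, SE 0.08) rose as they did against shSCR1. CHAC1, called lower against shSCR1, was higher than shSCR2 (0.53, SE 0.18), where the control libraries held 4.74 and 7.50 CPM. DDIT4 (1.22, SE 0.30) and CEBPB (0.68, SE 0.12) likewise turned from lower to higher, SLC7A1 (-0.84) and PSPH (-0.43) from higher to lower, and XBP1 did not pass (-0.10, SE 0.09). PSAT1 (-2.01), SHMT2 (-1.55), SLC7A11 (-1.42) and SLC7A5 (-1.25) were called lower and HERPUD1 (1.21), DDIT4 and ALDH1L2 (1.70) higher here and not against shSCR1. Without replicate 1 of shSCR1, 5 genes were called higher and 7 lower, SLC7A11 (-1.19) and SHMT2 (-1.10) being added. Of all 21393 genes tested 4805 were then called higher and 3731 lower. With library sizes in place of TMM the median of all genes moved from 0.05 to 0.40, 6192 of all genes were called higher and 2398 lower in place of 4453 and 3571, and 9 of the 36 genes were called higher.

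With shMITF in 501Mel cells few of the 36 genes moved against shSCR2: the transporters SLC1A5, SLC7A11 and SLC7A1 rose, and DDIT3, SHMT2 and MTHFD2 fell. Against shSCR1 more of them moved, as given below. SLC1A5 was 4.97-fold higher and SLC7A11 3.11-fold higher, the only calls among 35 genes tested, with 0 called lower by edgeR or DESeq2 and 3 lower at an unadjusted p under 0.05 (5.59% and 3.4% of all genes were called higher and lower). At an adjusted p under 0.05 alone 3 rose and 3 fell (10.0% and 10.5% of all genes) and 29 did not pass, with a median of -0.02 where that of all genes was 0.01. With 2 libraries per group the standard errors ran up to 0.53 on the log2 scale (DDIT4), and a change had to be several times its standard error to pass. NUPR1 at 0.82 and HERPUD1 at 0.66 did not pass, so genes that did not pass may hold changes of that size or larger.

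SLC1A5 was at 298 and 273 CPM in shSCR2 and at 964 and 1781 CPM in shMITF (2.31, SE 0.32, adjusted p = 0.0066). SLC7A11 went from 81.6 and 149 CPM to 315 and 380.2 CPM (1.64, SE 0.29, adjusted p = 0.015). Neither gene's groups overlapped. SLC7A1 rose by 0.48 (SE 0.12, adjusted p = 0.022), and SLC7A5 (0.41, SE 0.22, adjusted p = 0.22) and SLC3A2 (0.45, SE 0.17, adjusted p = 0.087) had values of the same sign that did not pass. SLC1A4 (0.11, SE 0.13) and SLC38A2 (-0.20, SE 0.12) did not pass. The SLC1A5 call was lost when replicate 1 of shSCR2 was left out (2.37, adjusted p = 0.12) or replicate 2 (2.23, adjusted p = 0.10), and the SLC7A11 call when replicate 1 of shMITF was left out (1.78, adjusted p = 0.094) or replicate 2 (1.46, adjusted p = 0.20).

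The genes that fell were a transcription factor and enzymes of mitochondrial folate metabolism. DDIT3 went from 22.0 and 21.9 CPM to 10.5 and 12.7 CPM (-0.87, SE 0.19, adjusted p = 0.012), the opposite of its rise with shBRG1. SHMT2 went from 294 and 315 CPM to 226 and 196 CPM (-0.49, SE 0.12, adjusted p = 0.02), and MTHFD2, the next enzyme of the pathway, from 197 and 217 CPM to 131 and 123 CPM (-0.67, SE 0.12, adjusted p = 0.0052). In the same libraries the processed copy MTHFD2P1 went from 5.59 and 9.92 CPM to 49.5 and 55.7 CPM, so that the sum of both was 202 and 227 CPM in shSCR2 and 180 and 179 CPM in shMITF. How reads were split between MTHFD2 and this copy was not tested, and its value is uncertain for that reason. ATF4 was at 254 and 320.0 CPM in shSCR2 and 213 and 253 CPM in shMITF (-0.25, SE 0.15, adjusted p = 0.27). Against shSCR1, however, ATF4 passed the test downwards (-0.56, SE 0.098, adjusted p = 0.00098 by edgeR).

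None of the remaining genes passed against shSCR2. CEBPB (-0.35, SE 0.19), XBP1 (0.43, SE 0.23) and NUPR1 (0.82, SE 0.36) did not, and neither did the effectors TRIB3 (0.26, SE 0.22), CHAC1 (0.13, SE 0.35), DDIT4 (-0.08, SE 0.53), PPP1R15A (0.32, SE 0.23) and VLDLR (0.40, SE 0.18). HSPA5 was at 0.12 (SE 0.17) and HERPUD1 at 0.66 (SE 0.31). In the serine pathway PHGDH (-0.15, SE 0.13), PSAT1 (-0.17, SE 0.37) and PSPH (-0.04, SE 0.15) did not pass, nor did ASNS (-0.02, SE 0.19). The other enzymes, ALDH1L2 and the genes of tRNA export and charging ranged from -0.16 to 0.77, and STC2 was too low to be tested. Against shSCR1 in place of shSCR2, 7 genes were called higher and 5 lower, where 12.2% and 17.6% of all genes were. At an adjusted p under 0.05 alone 14 rose and 11 fell, where 6352 and 6199 of 19179 genes did. SLC7A1 (2.02), SLC7A5 (1.59), PSPH (1.23), ALDH18A1 (1.22) and PSAT1 (1.20) were called higher there and not against shSCR2. CHAC1 (-2.15), DDIT4 (-2.03), CEBPB (-1.93) and CBS (-1.40) were called lower there and not against shSCR2. SLC1A5 (2.07, SE 0.23) and SLC7A11 (2.03, SE 0.19) were again called higher and DDIT3 fell further (-1.60, SE 0.12). MTHFD2 turned to 0.75 (SE 0.18) and SHMT2 did not pass (0.07, SE 0.12). PHGDH (-0.84, SE 0.098) and ATF4 passed downwards below the fold threshold.

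In Hermes 3A cells shBRG1 moved many of the genes by small amounts that the tight replicates resolved. 6 of the 7 transporters and 3 of the 5 genes of tRNA export and charging rose, and the transcription factors DDIT3 and XBP1 and the endoplasmic reticulum genes HSPA5 and HERPUD1 fell. SLC7A11 was called higher (2.04-fold) and CTH, which makes cysteine from cystathionine, was called lower (2.26-fold), where 5.78% and 3.47% of all genes were called higher and lower. At an adjusted p under 0.05 alone 14 genes rose, 12 fell and 10 did not pass (28.2% and 28.6% of all genes rose and fell), with a median of 0.01 for the genes as for all genes. In 1 fit with the more variable shMITF libraries, 13 of these 26 genes passed, and those that did not were DDIT3, XBP1, HERPUD1, ASNS, PHGDH, PYCR1, CBS, ALDH1L2, SLC1A4, SLC7A11, SLC38A2, XPOT and WARS.

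6 of the 7 transporters passed, all of them upwards. SLC7A11 went from 18.2, 18.7 and 19.8 CPM to 38.8, 35.3 and 40.3 CPM (1.03, SE 0.07, adjusted p = 1.6e-13), SLC7A5 from 1427, 1464 and 1329 CPM to 2239.6, 2039.7 and 2107 CPM (0.61, SE 0.05) and SLC3A2 from 865, 856 and 813 CPM to 1242, 1128 and 1117 CPM (0.47, SE 0.04). No knockdown library overlapped a control library for these 3 genes, which encode the light chains of the cystine and neutral amino acid exchangers and the heavy chain that both share. SLC7A1 (0.63, SE 0.04), SLC38A2 (0.18, SE 0.04) and SLC1A4 (0.15, SE 0.04) rose as well, and SLC1A5 did not pass (0.07, SE 0.04). The SLC7A11 call lay just past the fold threshold and was lost when replicate 1 of shSCR (0.99) or replicate 3 of shBRG1 (0.98) was left out. Among the tRNA genes GARS (0.71, SE 0.04), WARS (0.47, SE 0.04) and XPOT (0.15, SE 0.04), which exports tRNA from the nucleus, rose, and SARS (-0.02) and AARS (0.05) did not pass.

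ATF4 did not pass in these cells: 167, 164 and 166 CPM in shSCR and 166, 162 and 155 CPM in shBRG1 (-0.03, SE 0.04, adjusted p = 0.61). DDIT3 fell from 32.1, 35.3 and 34.8 CPM to 28.3, 26.9 and 26.9 CPM (-0.30, SE 0.06) and XBP1 by 0.68 (SE 0.04), while CEBPB (-0.07, SE 0.06) and NUPR1 (-0.11, SE 0.24) did not pass. PPP1R15A fell from 219.9, 215 and 203 CPM to 147, 141 and 134 CPM (-0.58, SE 0.04) and VLDLR by 0.43 (SE 0.04), DDIT4 rose by 0.58 (SE 0.05), and TRIB3 (0.05, SE 0.07), CHAC1 (-0.15, SE 0.09) and STC2 (0.62, SE 0.42) did not pass. HSPA5 fell from 1611, 1677 and 1685 CPM to 942, 962 and 929.8 CPM (-0.80, SE 0.04, adjusted p = 1.2e-15) and HERPUD1 by 0.41 (SE 0.05).

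All 8 enzymes of amino acid synthesis passed in the fit of shBRG1 and shSCR alone, 4 in each direction, but ASNS (adjusted p = 0.09 by edgeR), CBS (0.16), PYCR1 (0.35) and PHGDH (0.53) did not in the fit that held the shMITF libraries too. ASNS rose from 21.1, 22.1 and 21.1 CPM to 33.6, 35.3 and 35.9 CPM (0.72, SE 0.06, adjusted p = 8.5e-11), and ALDH18A1 (0.73, SE 0.04), PSPH (0.60, SE 0.06) and PYCR1 (0.17, SE 0.06) rose with it. PSAT1 fell from 338, 317 and 346 CPM to 209, 207 and 199.7 CPM (-0.69, SE 0.04, adjusted p = 8.9e-15), and PHGDH (-0.18, SE 0.05) and CBS (-0.25, SE 0.05) fell less. CTH fell from 10.1, 11.8 and 11.9 CPM to 4.40, 5.23 and 5.11 CPM (-1.18, SE 0.10). SHMT2 fell by 0.45 (SE 0.04), ALDH1L2 by 0.11 (SE 0.05) and MTHFD2 did not pass (-0.11, SE 0.06).

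With shMITF in Hermes 3A cells the calls were mostly decreases, in genes of different roles. WARS (2.94-fold), CHAC1 (2.51-fold), PSAT1 (2.49-fold), ALDH1L2 (2.27-fold) and CTH (2.22-fold) were called lower and SLC1A4 (2.36-fold) was called higher, 5 and 1 of 36 genes, where 4.04% of all genes were called lower and 3.35% higher. At an adjusted p under 0.05 alone 7 fell and 3 rose (9.15% and 7.85% of all genes) and 26 did not pass, with a median of -0.07 beside 0.05 for all genes. This comparison shares its shSCR libraries with the one for shBRG1, so the values of both do not stand as independent of each other.

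WARS was at 1103, 1083 and 1106 CPM in shSCR and at 345, 288 and 468 CPM in shMITF (-1.56, SE 0.19, adjusted p = 0.0021), the reverse in sign of its change with shBRG1. PSAT1 went from 338, 317 and 346 CPM to 131, 170.2 and 93.2 CPM (-1.32, SE 0.21, adjusted p = 0.0054), and CHAC1 from 12.9, 15.7 and 12.9 CPM to 7.48, 3.94 and 4.85 CPM (-1.33, SE 0.25, adjusted p = 0.011). The groups of all 3 genes were apart. ALDH1L2 went from 62.6, 62.3 and 66.4 CPM to 30.0, 19.1 and 33.6 CPM (-1.18, SE 0.20) and CTH from 10.1, 11.8 and 11.9 CPM to 7.05, 4.41 and 3.38 CPM (-1.15, SE 0.27, adjusted p = 0.024). The CTH call was lost when any 1 shSCR replicate (adjusted p = 0.063 to 0.10) or replicate 3 of shMITF (-0.94) was left out, that of CHAC1 without replicate 2 of shSCR (-1.24, adjusted p = 0.062), and that of ALDH1L2 without replicate 2 of shMITF (-0.98).

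HSPA5 fell from 1611, 1677 and 1685 CPM to 1197, 533 and 742 CPM (-0.98, SE 0.27, adjusted p = 0.04), and VLDLR fell by 0.69 (SE 0.16). SLC1A4 rose from 321, 334 and 313 CPM to 885, 513 and 853 CPM (1.24, SE 0.21, adjusted p = 0.0067), and SLC7A1 (0.73, SE 0.11) and SLC3A2 (0.60, SE 0.14) rose below the fold threshold. SLC7A11 was at 141, 32.0 and 25.2 CPM in shMITF, all above the 18.2 to 19.8 CPM of shSCR, with a fold change that the first library set (1.83, SE 0.58, adjusted p = 0.063). Without that library SLC7A11 stood at 0.62 (adjusted p = 0.017). Without it 6 genes were called lower, HSPA5 (-1.36) being added, and 12 passed downwards, among them MTHFD2 (-0.67) and PSPH (-0.60). In that setting 778 of all 16980 genes tested were called lower and 2351 passed downwards.

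ATF4 did not pass: 189, 163 and 171 CPM in shMITF (0.10, SE 0.12, adjusted p = 0.60). DDIT3 (-0.72, SE 0.26, adjusted p = 0.091), CEBPB (0.43, SE 0.16, adjusted p = 0.095) and XBP1 (-0.23, SE 0.27) did not pass, and neither did TRIB3 (-0.24, SE 0.14) and DDIT4 (0.04, SE 0.15). ASNS was at 42.0, 15.4 and 23.2 CPM, a range that spans its controls (0.35, SE 0.31). PHGDH (-0.04, SE 0.21), PSPH (-0.43, SE 0.17), SHMT2 (-0.22, SE 0.14), MTHFD2 (-0.50, SE 0.17) and SLC7A5 (0.37, SE 0.15) did not pass. STC2 (2.56, SE 1.00) rested on 4.32 CPM in replicate 1 against 0.349 and 0.367 CPM in the other two. NUPR1, PPP1R15A, HERPUD1, ALDH18A1, PYCR1, CBS, SLC1A5, SLC38A2, XPOT, SARS, GARS and AARS did not pass either, with values from -0.45 to 0.83.

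**Figure D3:**
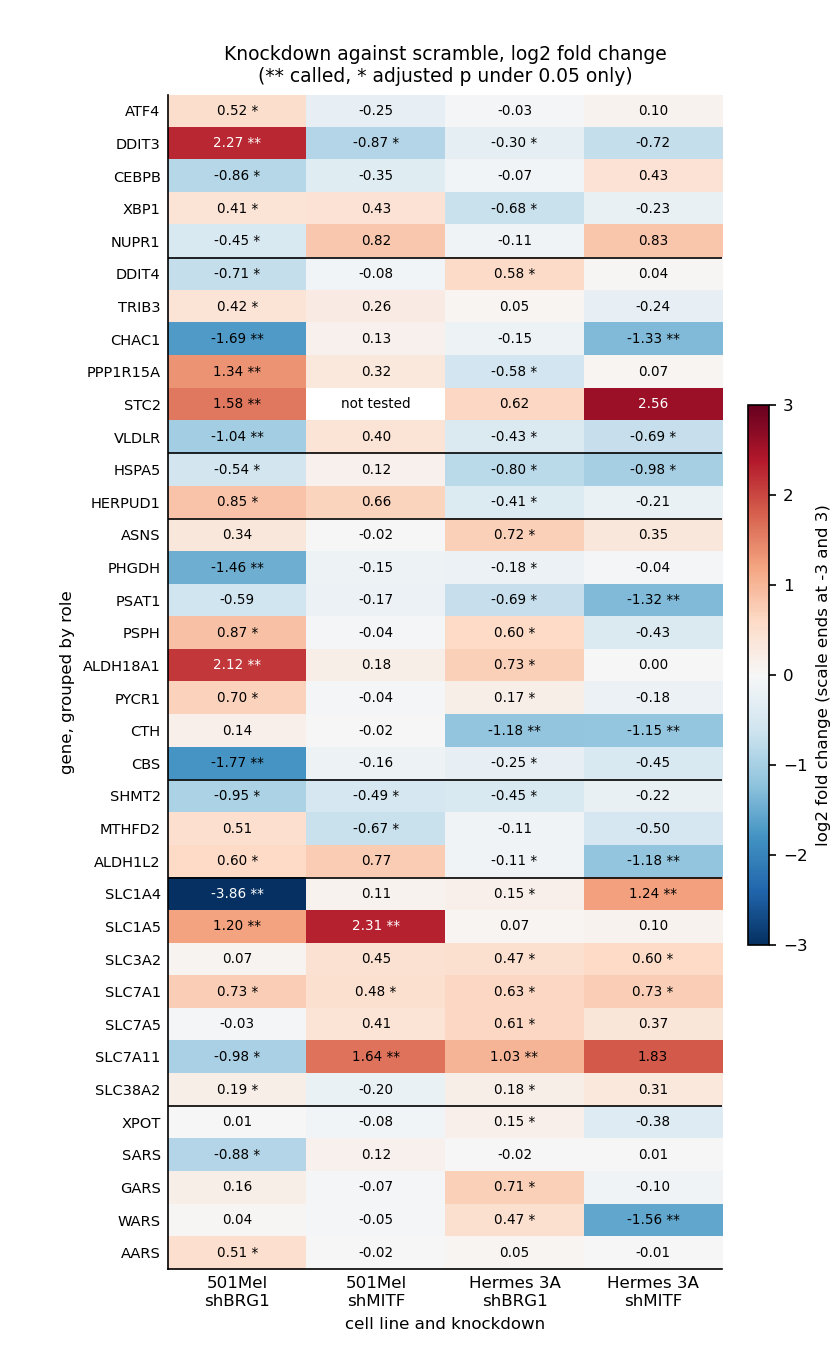
Log2 fold change of each of the 36 genes in the 4 knockdown comparisons, ordered by role, on a colour scale that ends at -3 and 3, with double stars for calls and single stars for an adjusted p under 0.05 alone. 501Mel shBRG1 holds 10 calls, 501Mel shMITF and Hermes 3A shBRG1 2 each and Hermes 3A shMITF 6.

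The response to shBRG1 differed between the lines in stress regulators, carriers and synthesis enzymes alike. In a test of the difference itself 13 of the 36 genes were called, 7 with a higher and 6 with a lower effect in 501Mel than in Hermes 3A, where 26.9% of all genes were called. SLC1A4 differed most (-4.04, SE 0.06), falling in 501Mel and rising slightly in Hermes 3A cells. DDIT3 (2.54, SE 0.08), PPP1R15A (1.89, SE 0.07), HERPUD1 (1.23, SE 0.10) and XBP1 (1.06, SE 0.08) rose in 501Mel and fell in Hermes 3A cells. SLC7A11 (-2.03, SE 0.24) and DDIT4 (-1.32, SE 0.11) fell in 501Mel and rose in Hermes 3A cells, though DDIT4 was higher in 501Mel shBRG1 than in shSCR2. The 501Mel effect also turned or shrank against shSCR2 for CHAC1, XBP1, CBS (-1.77 to -0.56), ALDH18A1 (2.12 to 1.06) and PHGDH (-1.46 to -0.81), and the difference between the lines was not tested with that control. CHAC1 (-1.58), CBS (-1.55) and PHGDH (-1.30) had the lower effect in 501Mel, and ALDH18A1 (1.37), CTH (1.29) and SLC1A5 (1.10) the higher one. ATF4 rose more in 501Mel by 0.51 (SE 0.07), below the fold threshold. ASNS (-0.41, SE 0.31), PSAT1 (0.07, SE 0.26), SLC7A1 (0.07, SE 0.11), SLC38A2 (-0.02, SE 0.07), NUPR1 (-0.38, SE 0.23) and STC2 (0.94, SE 0.62) did not differ past the test. With shSCR2 as the 501Mel control, all of these but NUPR1 stood further from their Hermes 3A values. SLC7A1 was then at -0.84 in 501Mel and 0.63 in Hermes 3A cells, and PSAT1 at -2.01 and -0.69.

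**Figure D4:**
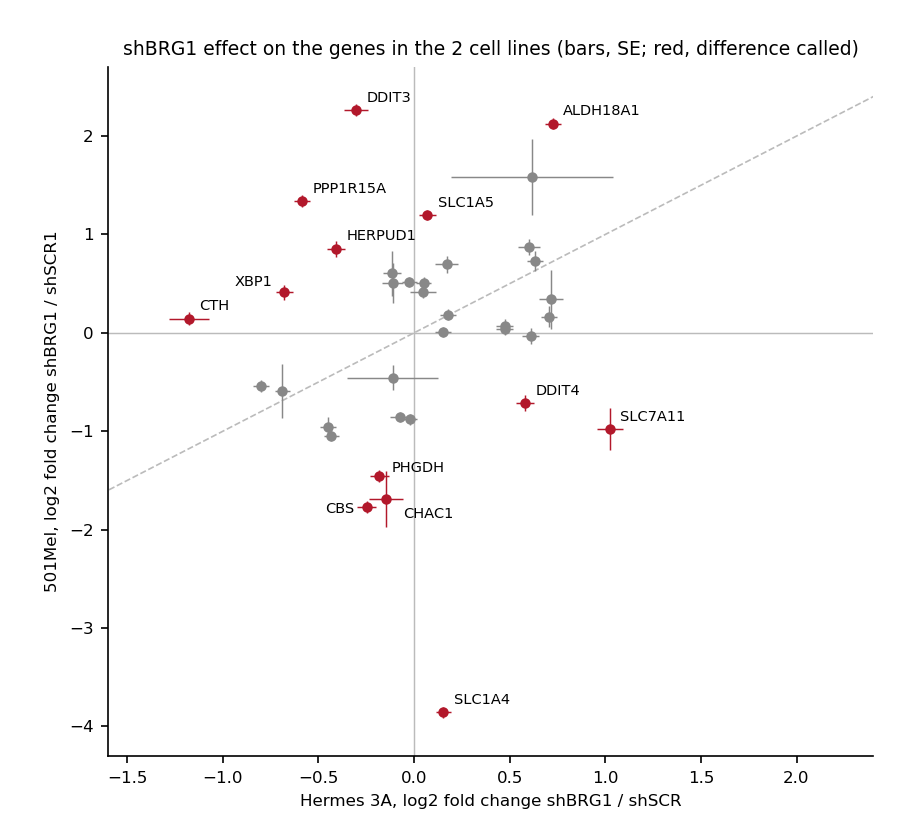
Effect of shBRG1 as a log2 fold change, in Hermes 3A cells on the horizontal axis and in 501Mel cells on the vertical axis, for the 36 genes, with bars of 1 SE, a dashed line of equal change and the 13 genes whose difference was called in red. SLC1A4 lies at -3.86 in 501Mel and 0.15 in Hermes 3A cells, and DDIT3, PPP1R15A, HERPUD1 and XBP1 lie above 0 in 501Mel and below 0 in Hermes 3A cells.

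For shMITF 4 of 36 genes differed between the lines, where 2.64% of all genes were called. SLC1A5 (2.20, SE 0.32), ALDH1L2 (1.93, SE 0.42), WARS (1.50, SE 0.26) and VLDLR (1.08, SE 0.26, adjusted p = 0.046) each had the higher effect in 501Mel, which for SLC1A5 was a rise in 501Mel and for the others a fall in Hermes 3A cells. The 501Mel level of ALDH1L2 was below 1 CPM in both groups. With edgeR 0 of the differences called were lower in 501Mel, against 2 at an unadjusted p under 0.05 and 1 called by DESeq2. The other 32 did not pass, which does not show equal effects. Only the SLC1A5 difference of these 4 was called in every alternative tried. The number called fell without either replicate of 501Mel shSCR2, without replicate 2 of 501Mel shMITF, and to 2 without any 1 Hermes 3A shSCR replicate. It rose to 8 without replicate 1 of Hermes 3A shMITF. In that last setting 561 of all 19266 genes were called with a higher effect in 501Mel and 242 with a lower one.

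Within 501Mel, the effect of shBRG1 differed from that of shMITF in 12 of the 36 genes called on that difference, where 27.3% of all genes were called. The difference was 3.16 (SE 0.14) for DDIT3, 1.96 for ALDH18A1, 1.20 for MTHFD2 and 1.06 for PPP1R15A, each a higher effect with shBRG1. It was -3.95 (SE 0.11) for SLC1A4, -2.59 (SE 0.40) for SLC7A11, -1.78 for CHAC1, -1.58 for CBS, -1.42 for VLDLR, -1.27 for PHGDH, -1.23 for NUPR1 and -1.08 for SLC1A5. SLC1A5 rose with both knockdowns and more with shMITF, while SLC7A11 rose with shMITF and fell with shBRG1. Each effect in this test is taken against its own scramble group, and those groups differed for MTHFD2, ALDH18A1, CHAC1 and CBS as given above. With shSCR1 as the control of both knockdowns, MTHFD2 stood at 0.51 with shBRG1 and 0.75 with shMITF, and CHAC1 at -1.69 and -2.15. For MTHFD2 and CHAC1 the order of the effects with that shared control was thus the reverse of the difference tested.

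Related genes were read from 7 lists, of which the upstream and parallel parts of the stress network come first. In 501Mel these are given against the assigned control only, though the scramble groups differed. In shSCR2 against shSCR1 the median was 0.64 for upstream genes, -0.60 for ATF4 partners and targets and -0.34 for the ATF6 and IRE1 arms. It was 0.78 for tRNA synthetases, 0.55 for folate enzymes, 0.37 for transporters and 1.53 for NRF2 targets (-0.06 for all genes). ATF5 (1.09), SLC1A3 (1.14) and NQO1 (1.97) were higher in shSCR2 and GDF15 (-2.23) lower. The shares of all genes that rose and fell at an adjusted p under 0.05, against which each count stands, were 41.2% and 39.1% with shBRG1 and 10.0% and 10.5% with shMITF in 501Mel, and 28.2% and 28.6% with shBRG1 and 7.85% and 9.15% with shMITF in Hermes 3A cells. Of 15 genes upstream of ATF4, for eIF2 kinases, subunits of eIF2 and of its exchange factor and the regulators PPP1R15B, GCN1L1 and IMPACT, 4 rose and 9 fell with shBRG1 in 501Mel, EIF2AK3, the kinase PERK, rising by 1.72 and EIF2AK1 falling by 1.18. In the other comparisons 1 rose and 1 fell (501Mel shMITF), 4 rose and 5 fell (Hermes 3A shBRG1) and 1 rose and 1 fell (Hermes 3A shMITF). Of 10 tested ATF4 partners and targets outside the 36 genes, 7 rose and 3 fell with shBRG1 in 501Mel, with CEBPG at 1.97, ATF5 at 1.37 and SESN2 at 1.15. With shMITF in 501Mel 2 rose, with shBRG1 in Hermes 3A 6 rose and 1 fell, GDF15 by 1.41, and with shMITF in Hermes 3A 1 rose, ATF3 by 2.03, and 4 fell, GDF15 by 4.63.

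The 16 chaperones and other genes of the ATF6 and IRE1 arms moved chiefly downwards. With shBRG1 12 fell and 2 rose in 501Mel (median -1.09), PDIA6 falling by 2.20 and HSP90B1 by 1.54, and 13 fell and 2 rose in Hermes 3A cells (median -0.55), DNAJB11 falling by 1.62. With shMITF 9 fell in Hermes 3A cells (median -0.67), HYOU1 falling by 1.31, and 1 fell and 2 rose in 501Mel. HSPA5, of the 36 genes, fell in the same 3 comparisons. XBP1 mRNA rose in 501Mel shBRG1 cells against shSCR1 while most of these chaperones fell, but XBP1 did not pass against shSCR2 (-0.10, SE 0.09).

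The neighbouring metabolic lists had no single direction. Of 16 other cytosolic tRNA synthetases 3 rose and 7 fell with shBRG1 in 501Mel and 8 rose and 5 fell in Hermes 3A cells, and with shMITF 1 fell in 501Mel and 1 rose in Hermes 3A cells. Of 10 other folate and one-carbon enzymes 3 rose and 6 fell with shBRG1 in 501Mel and 3 rose and 5 fell in Hermes 3A cells; with shMITF 1 rose and 2 fell of 9 tested in 501Mel and 3 fell in Hermes 3A cells. Of 10 tested other amino acid transporters 6 rose and 3 fell with shBRG1 in 501Mel, SLC1A3, a glutamate carrier, rising by 2.32. With shMITF in 501Mel 2 rose, SLC7A8 by 2.22 and SLC1A3 by 2.07, and 3 fell. In Hermes 3A cells 4 rose and 3 fell with shBRG1 and 2 fell with shMITF. Of 9 tested NRF2 targets, which share SLC7A11 as a known target, 5 rose and 3 fell with shBRG1 in 501Mel, 1 rose with shMITF (NQO1, 1.36), 1 rose and 7 fell with shBRG1 in Hermes 3A, and 2 rose with shMITF there (NQO1, 1.64).

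**Figure D5:**
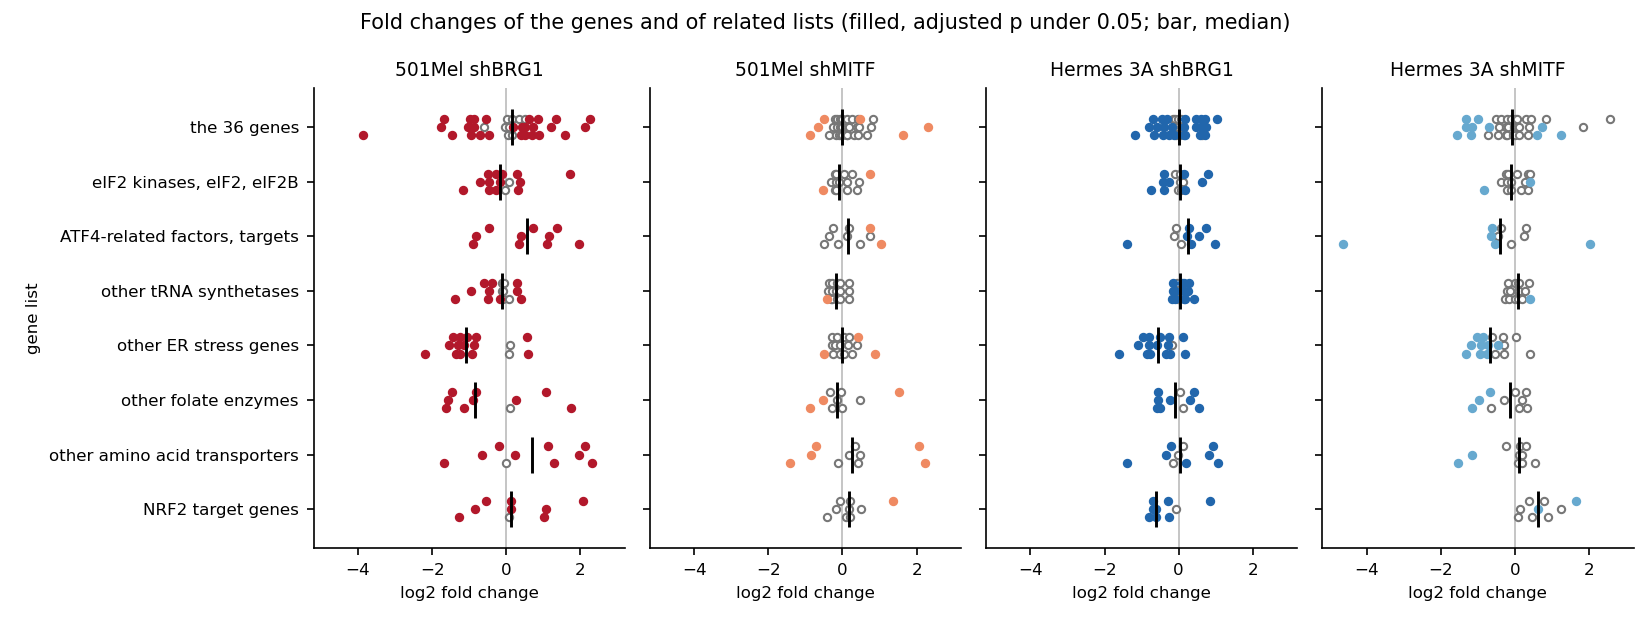
Log2 fold changes of the 36 genes and of 7 related lists in the 4 knockdown comparisons, with filled points for an adjusted p under 0.05 and a bar at the median of each list. The endoplasmic reticulum list has medians of -1.09, -0.55 and -0.67 in 501Mel shBRG1, Hermes 3A shBRG1 and Hermes 3A shMITF.

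The genes that carry the C/EBP-ATF core in a start window stand as a set whose members are given above. Of those 9 genes 4 rose and 2 fell with shBRG1 in 501Mel (41.2% and 39.1% of all genes), 2 rose with shMITF in 501Mel (10.0%), 5 rose and 1 fell with shBRG1 in Hermes 3A (28.2% and 28.6%) and 3 rose and 1 fell with shMITF there (7.85% and 9.15%). With so few genes nothing particular to the core is read from these counts. SLC1A4 and SLC1A5, each with the core in the window of at least 1 of its starts, moved in opposite directions with shBRG1 in 501Mel. SLC7A1 passed upwards in all 4 comparisons against the assigned controls, but with shBRG1 in 501Mel it passed downwards against shSCR2 (-0.84, SE 0.07).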

How the data were processed

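RNA-seq libraries came from rRNA-depleted total RNA and passed through duplex-specific nuclease, which lowers the most abundant cDNAs. The files the authors deposited hold, for each of 19 samples, unnormalised counts of reads by Ensembl gene identifier. The submitters' processing notes name CASAVA 1.8, TopHat 1.4.1, Bowtie 0.12.7 and hg19, while the counter, its annotation and its strand setting are not given in the sources used here. Samples were grouped by their titles. The 36 genes and the related lists were chosen with earlier results of these data known; 32 symbols matched as they stand and 4 through an older symbol.

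From the deposited counts, edgeR 4.0.16 (limma 3.58.1, R 4.3.3) fitted each comparison on its own groups, with TMM scaling, filterByExpr and a robust quasi-likelihood test, and p-values were adjusted by the Benjamini-Hochberg method over all genes tested. Differences between effects were tested as contrasts in 1 fit of the 4 groups concerned, and the 3 scramble groups in 1 fit. A standard error is the absolute log2 fold change over the square root of F. The levels' common scale differs from each comparison's own by 0.012 to 0.065 in absolute log2. Exon lengths and overlaps are from GENCODE release 29 (GRCh38). It also gave the names of gene copies and the older symbols of SARS, GARS, WARS and AARS, and served to check the strand of the RefSeq start windows. The code was tested on simulated counts. The text gives the members set by a rule fixed with those lists, and non-members only by list counts with at most 3 named; alternatives were DESeq2 1.42.0, library sizes, no filter, at least 10 counts in every sample, a replicate block, each replicate left out, all groups of a line in 1 fit, glmTreat, pooled scramble groups, genes restricted to those in every Hermes 3A file and, chosen after the data were seen, the other 501Mel scramble group. Depth was 29158502 to 78857900 counts, and the sampling error it leaves is largest for STC2 and for ALDH1L2 in 501Mel. Tables and figures were made with Python 3.11.15, pandas 2.3.3, numpy 2.4.6 and matplotlib 3.10.9.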

Additional observations from a re-analysis of the deposited data

Results flagged for a closer look

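17 differences between the cell lines were past both thresholds in a test of the difference itself, given as the log2 effect in 501Mel minus that in Hermes 3A. For shBRG1 they were -4.04 for SLC1A4, 2.54 for DDIT3, -2.03 for SLC7A11, 1.89 for PPP1R15A, -1.58 for CHAC1, -1.55 for CBS, 1.37 for ALDH18A1, -1.32 for DDIT4, -1.30 for PHGDH, 1.29 for CTH, 1.23 for HERPUD1, 1.10 for SLC1A5 and 1.06 for XBP1. For shMITF they were 2.20 for SLC1A5, 1.93 for ALDH1L2, 1.50 for WARS and 1.08 for VLDLR. No group holds the 4 samples that a test for a single outlying sample needs.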

How the results depend on the processing

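Over 1998 values of single genes under an alternative, 33 lost a call, 37 gained one and 25 changed sign where the value passed the test at an adjusted p under 0.05 with one setting or the other. Of the remaining 1903, 92 changed sign with neither value past the test. The numbers of the 36 genes called moved by over 1.5 times in these cases, main value in brackets. Higher with shBRG1 in 501Mel: 9 with library sizes and 8 against shSCR2 (5). With shMITF in 501Mel against shSCR1: 7 higher (2) and 5 lower (0). Higher with shBRG1 in Hermes 3A: 0 with all groups of the line in 1 fit (1). Higher with shMITF in Hermes 3A: 2 with DESeq2, library sizes or 1 fit of the line (1). DESeq2 called 7 differences between the lines for shMITF (4), where it called 618 of all 19284 genes with a higher effect in 501Mel and 286 with a lower one. With glmTreat, which tests for a change larger than 1 on the log2 scale, 0 of these genes were called higher in 501Mel shMITF. In both Hermes 3A comparisons 0 were called either way. It called few of all genes too: 141 of 17701 higher in 501Mel shMITF. Higher and lower, it called 358 and 244 of 17222 in Hermes 3A shBRG1 and 83 and 102 of 16508 in Hermes 3A shMITF.

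Signs changed with shBRG1 in 501Mel against shSCR2 for CEBPB (0.68), XBP1 (-0.10), DDIT4 (1.22), CHAC1 (0.53), PSPH (-0.43), MTHFD2 (-0.95), SLC3A2 (-0.38), SLC7A1 (-0.84), XPOT (-0.67), GARS (-0.55) and WARS (-0.63), for SLC7A1 with pooled scramble groups (-0.069) and for SLC7A5 with library sizes (0.32). With shMITF in 501Mel against shSCR1 they changed for CHAC1 (-2.15), PPP1R15A (-0.50), PSAT1 (1.20), PSPH (1.23), PYCR1 (0.42), SHMT2 (0.072), MTHFD2 (0.75), SLC1A4 (-0.70), XPOT (0.57), GARS (0.61) and WARS (0.59), and for MTHFD2 with pooled scramble groups (0.0077). ALDH1L2 (-0.40), HSPA5 (-0.10), SARS (-0.12), AARS (0.24) and ASNS (0.10) also changed sign against shSCR1, with neither value past the test. The cause was not tested, but the scramble groups themselves differed for many of these genes.

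Leaving out 1 replicate at a time gave 5 to 5 called higher and 4 to 7 lower in 501Mel shBRG1, 1 to 2 and 0 to 1 in 501Mel shMITF, 0 to 1 and 1 to 1 in Hermes 3A shBRG1, and 1 to 2 and 3 to 6 in Hermes 3A shMITF. It gave 12 to 13 and 1 to 8 differences between the lines for shBRG1 and shMITF, 9 to 13 between the knockdowns in 501Mel, 9 to 11 between its scramble groups and 15 to 18 between the lines under scramble. Where 1 replicate was left of a group, it was assumed to vary like the others. Over all genes the calls ran from 4486 to 4805 higher and 3694 to 3814 lower in 501Mel shBRG1 (20953 to 21441 tested). In Hermes 3A they ran from 975 to 1090 and 600 to 661 with shBRG1 (17610 to 17741). With shMITF there they ran from 236 to 692 and 354 to 898 (16861 to 17091). With 1 Hermes 3A library left out, 157 to 561 genes had a called higher shMITF effect in 501Mel. A lower one was called for 39 to 242, of 19049 to 19266. With the replicate number as a block, 2 genes were called higher and 6 lower with shMITF in Hermes 3A, STC2 and HSPA5 being added. Of all 16508 genes 488 were then called higher and 725 lower. The counts were 5 and 5, 2 and 0, and 1 and 1 in the other comparisons. Over all genes they were 4448 and 3566 of 20514, 1127 and 730 of 17701, and 1014 and 599 of 17222. Deviations of same-numbered samples correlated by -0.03 to 0.04 in the comparisons with 3 replicates. In 501Mel shMITF, with 2, the value of 0.09 mirrors the -0.09 of other numbers by construction and tells nothing. These values neither show a pairing by number nor exclude it. Over all genes, calls with library sizes were 1231 higher and 467 lower in place of 996 and 598 (Hermes 3A shBRG1) and 686 and 540 in place of 553 and 667 (Hermes 3A shMITF), and with pooled scramble groups 327 and 248 in place of 990 and 602 (501Mel shMITF).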
